A study of Homo sapiens with 5 samples.

Results

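The aminoacyl-tRNA synthetases are described here in HUDEP-2, an immortalised line of erythroid progenitors from umbilical cord blood, in a comparison of 3 RNA libraries with the genotype ERF knockout and 2 with the genotype wild type. The genes were chosen by name: 36 cytosolic and mitochondrial synthetases were listed, and the 35 found in the authors' deposited comparison table of 11976 genes are the members. SARS2 was not analysed here. ERF is an ETS-domain transcriptional repressor, and the labels name no other allele, agent, clone, edit position or time point for either group. The wild-type titles carry the letters SCR, which the labels do not explain, and the table's name carries the abbreviation Pre, so the culture stage is not known. No label ties the libraries to separate cultures, and the p-values therefore rest on the spread between these samples alone, which may be technical.

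Each synthetase joins 1 kind of amino acid to its tRNA, which makes this family the entry point of amino acids into protein synthesis. Cytosol and mitochondria mostly use separate nuclear genes, named without and with a final 2. GARS and KARS each encode the enzyme of both compartments, and QARS has no mitochondrial namesake because mitochondria make glutaminyl-tRNA by way of the glutamyl enzyme EARS2 and an amidotransferase. Uncharged tRNA activates the kinase GCN2 (EIF2AK4), and many cytosolic synthetase genes are known targets of ATF4, the transcription factor whose translation rises when eIF2 is phosphorylated. Erythroid precursors have a further eIF2 kinase that senses heme, which ties protein synthesis to globin assembly.

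The direction of every value below rests on 1 convention. No reference group is named in the header, so the sign was set to make the γ-globin gene HBG2 positive, and deposited fold changes were multiplied by -1. On that sign the authors' deposited table puts HBG2 at a log2 fold change of 1.88 (SE 0.22), where the deposited value itself is -1.88. Every log2 fold change credited below to the authors' deposited table is likewise given on the set sign, opposite to the deposited one. "Higher" and "lower" mean higher or lower in the libraries with more HBG2 RNA. By the series title, inactivation of ERF turns γ-globin back on, and on that reading these are the libraries labelled knockout. ERF RNA itself went the same way as HBG2, at 0.89 (SE 0.07), against the knockout label. If the deposited sign is instead knockout over wild type, every "lower" below is higher in the libraries labelled knockout and every "higher" is lower. The sizes, intervals and adjusted p-values are the same on either reading.

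Erythroid markers were present: all 11 listed, from GATA1 to HBB, were in the table at 6.90 to 12.48 mean log2 CPM, against 3 of 16 markers of other cell types. Of those 3, EPCAM, an epithelial marker, and ITGA2B, a megakaryocyte marker, stood within the erythroid range at 7.36 and 7.26 log2 CPM, and LYZ, a myeloid marker, at 0.48. Among the erythroid markers 7 were higher and 0 lower (median log2 fold change 0.22), next to 24.9% higher and 25.9% lower over all genes. Among genes of at least 6 log2 CPM, 31.8% were higher and 23% lower. The authors' deposited table has EPCAM lower at -0.20 (adjusted p = 0.0117) and ITGA2B and LYZ not past the threshold. The part of the erythroid and other markers in the synthetase values was not tested. The table holds no values per library, so no level or SD per library can be given and depth is unknown. Standard errors were derived from the fold change and F statistic of each gene.

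A short run of letters recurs in the promoters of several synthetases, shown here before the values. The search used TGATGNAA on both strands, the C/EBP-ATF composite element through which ATF4 and C/EBP partners are known to act on amino acid response genes. Windows ran from 250 bases before to 50 bases from the gene start on, from RefSeq on GRCh38.p14, and 29 of the 35 members had a window. AARS2, DARS, LARS, VARS, VARS2 and YARS had none. The 8 members with a match are printed 5′ to 3′ on the strand of the gene, 30 bases each, with the matched letters in capitals.
CARS: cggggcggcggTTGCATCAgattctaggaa
AARS: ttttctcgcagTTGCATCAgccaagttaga
GARS: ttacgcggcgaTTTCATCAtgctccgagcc
MARS: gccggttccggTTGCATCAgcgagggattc
IARS: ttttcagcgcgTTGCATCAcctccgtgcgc
TARS: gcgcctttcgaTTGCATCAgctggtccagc
NARS: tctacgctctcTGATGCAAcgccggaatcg
YARS2: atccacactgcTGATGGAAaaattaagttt

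The printed stretches lie at chr11:3057407-3057436 (CARS, minus strand), chr16:70289675-70289704 (AARS, minus), chr7:30594834-30594863 (GARS, plus) and chr12:57488053-57488082 (MARS, plus). Those of IARS, TARS, NARS and YARS2 lie at chr9:92293692-92293721 (minus), chr5:33440956-33440985 (plus), chr18:57621804-57621833 (minus) and chr12:32756076-32756105 (minus), all on GRCh38.p14. In 6 of the 8 the match reads TGATGCAA on 1 strand or the other. Of all 35116 windows, 1270 hold a match to TGATGNAA and 304 (0.866%) hold TGATGCAA. The 8 were already selected for TGATGNAA, so the 0.866% is not a like share for them. Matches in CARS, MARS, IARS and TARS begin within 13 bases of the annotated start, on either side of it, and that in NARS begins at base 15 counted from the start. In GARS the match begins 33 bases before the start, and in AARS and YARS2 it begins 187 and 197 bases before it.

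Most cytosolic synthetases were lower, by up to 2.46-fold, whereas mitochondrial synthetases moved little and in both directions. Of the 35 members in the authors' deposited table, 17 were lower and 7 higher at an adjusted p below 0.05, and 11 were not past that threshold. Over all genes 50.9% were called, 25.9% lower and 24.9% higher. Among the 17 genes named as cytosolic, 12 were lower, 2 higher and 3 not past the threshold (median log2 fold change -0.54). Among the 15 measured mitochondrial genes, 3 were lower, 5 higher and 7 not past the threshold (median 0.00028). The median over all genes was -0.0019. Of the 3 genes with no separate mitochondrial gene, GARS and QARS were lower and KARS was not past the threshold.

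**Figure D1:**
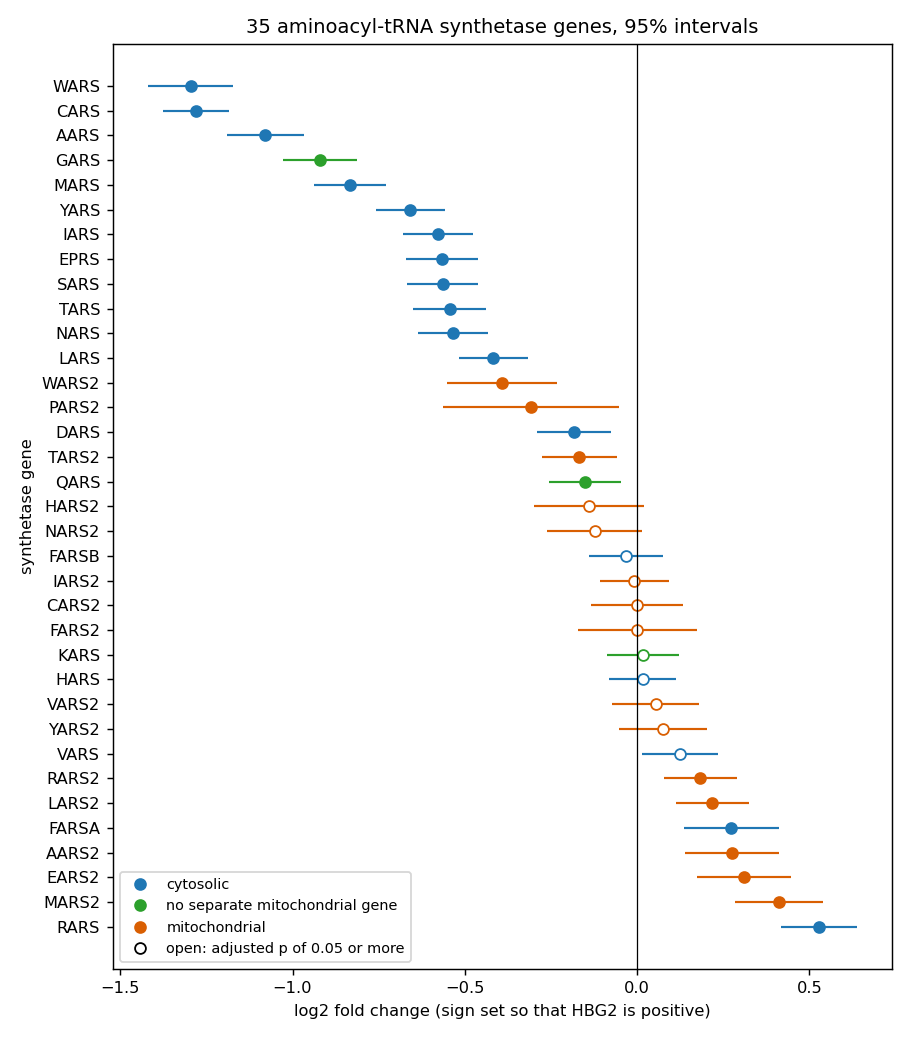
Log2 fold change of each of the 35 measured synthetase genes (horizontal axis, sign set so that HBG2 is positive) with its derived 95% interval, ordered by value; colours mark the compartment and open symbols an adjusted p of 0.05 or more. The 12 lowest genes are all cytosolic or, for GARS, shared between compartments, and the mitochondrial genes lie between -0.39 and 0.41.

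The 5 lowest members charge tryptophan, cysteine, alanine, glycine and methionine. The authors' deposited table, on the set sign, puts WARS (ENSG00000140105), the tryptophan enzyme, at a log2 fold change of -1.30 (SE 0.06, 2.46-fold lower, adjusted p = 9.67e-08). WARS is also a known interferon-induced gene. CARS (ENSG00000110619), which charges cysteine, is listed in the authors' deposited table at -1.28 (SE 0.04; 2.43-fold lower, adjusted p = 1.81e-08). AARS (ENSG00000090861), the alanine enzyme, stood at -1.08 (SE 0.05; 2.11-fold lower, adjusted p = 1.68e-07) in the same table. These 3 were the members at least 2-fold lower, a size that 2.26% of all genes reached. GARS (ENSG00000106105), the glycine enzyme of both compartments, came next in the authors' deposited table at -0.92 (SE 0.05; 1.89-fold lower, adjusted p = 3.73e-07). MARS (ENSG00000166986), which charges both initiator and elongator tRNA with methionine, stood at -0.83 (SE 0.05; 1.78-fold lower, adjusted p = 6.31e-07) there. Among all 11976 genes, 1.02% had a fold change below that of WARS, 1.09% below CARS and 3.59% below MARS.

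A second set of cytosolic enzymes fell by a narrow range of values. YARS, the tyrosine enzyme, stood at -0.66 in the authors' deposited table and was the last of 6 members at least 1.5-fold lower, a size that 7.39% of all genes reached. IARS (isoleucine) stood at -0.58, EPRS, which carries glutamate and proline activities in 1 chain, at -0.57 and SARS (serine) at -0.56 in the authors' deposited table. TARS (threonine) stood at -0.54, NARS (asparagine) at -0.53 and LARS (leucine), which also signals leucine to mTORC1, at -0.42 there. Neighbours in this order, from IARS to NARS, do not differ beyond their errors: the 95% interval of IARS was -0.68 to -0.48 and that of NARS -0.64 to -0.43. DARS (aspartate, -0.18, adjusted p = 0.00916) and QARS (glutamine, -0.15, adjusted p = 0.0217) were the least changed of the lower cytosolic genes in the authors' deposited table.

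Not every cytosolic enzyme followed. The authors' deposited table puts RARS (ENSG00000113643), the arginine enzyme, at 0.53 (SE 0.05; 1.44-fold higher, adjusted p = 1.92e-05). That was the highest value of all 35 members, and 94.9% of all genes lay below it. FARSA (ENSG00000179115), the catalytic subunit of phenylalanyl-tRNA synthetase, was higher at 0.27 (SE 0.06; adjusted p = 0.00418) in the same table. Its partner subunit FARSB stood at -0.03 (adjusted p = 0.605), and the 95% intervals of FARSA and FARSB were 0.14 to 0.41 and -0.14 to 0.08. VARS (valine) stood at 0.13 (adjusted p = 0.0579), HARS (histidine) at 0.02 (adjusted p = 0.770) and KARS (lysine), which serves both compartments, at 0.02 (adjusted p = 0.796) in the authors' deposited table. The intervals of HARS, -0.08 to 0.11, and KARS, -0.09 to 0.12, lie wholly above that of IARS.

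Among mitochondrial synthetases the values were smaller. MARS2 (ENSG00000247626), the mitochondrial methionine enzyme, was 1.33-fold higher in the authors' deposited table, at 0.41 (SE 0.06; adjusted p = 0.000227). EARS2 (ENSG00000103356), which charges glutamate and also misacylates the glutamine tRNA, stood at 0.31 (SE 0.06; adjusted p = 0.00200) there. AARS2 (ENSG00000124608) stood at 0.28 (SE 0.06; adjusted p = 0.00375) in the authors' deposited table, followed by LARS2 at 0.22 and RARS2 at 0.18. The 3 lower genes were WARS2 (-0.39, adjusted p = 0.00124), PARS2 (-0.31, adjusted p = 0.0453) and TARS2 (-0.17, adjusted p = 0.0154) in the authors' deposited table. PARS2, the proline enzyme, was the least expressed member at 1.95 log2 CPM and had the widest interval, -0.56 to -0.05. The 7 not past the threshold were HARS2 (-0.14), NARS2 (-0.12), IARS2 (-0.0078), CARS2 (-0.0011), FARS2 (0.00028), VARS2 (0.05) and YARS2 (0.07) in the authors' deposited table. None of the mitochondrial genes reached a 1.5-fold difference.

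Set side by side for the same amino acid, the cytosolic gene lay below its mitochondrial counterpart in most cases. Of the 35 members, 30 form 16 pairs over 15 amino acids, with EPRS paired with both EARS2 and PARS2, and FARS2 with both FARSA and FARSB. DARS, GARS, KARS, QARS and SARS are in no pair. In 10 pairs the 95% interval of the cytosolic gene lay wholly below that of the mitochondrial gene, in 1 pair wholly above, and in 5 the intervals overlapped. The median of the 16 differences in log2 fold change was -0.49. The widest was for alanine, with AARS at -1.08 and AARS2 at 0.28, a difference of -1.35. Cysteine followed at -1.28, since CARS2 stood at -0.0011, and methionine at -1.24. Calls were opposite in 4 pairs, those for alanine, glutamate, leucine and methionine. Beside these pair counts, 50.9% of all genes were called, 25.9% lower and 24.9% higher. Separate intervals and opposite calls were not counted for pairs of other genes, so no like share can be given. Tryptophan was an amino acid for which both genes were lower, WARS at -1.30 and WARS2 at -0.39, as were proline and threonine. Arginine was the pair with both genes higher, RARS at 0.53 and RARS2 at 0.18, and the pair in which the cytosolic gene lay above. The 5 overlapping pairs were histidine, proline, valine and both pairs for phenylalanine. The differences were not tested, because both genes of a pair were measured in the same libraries and values per library were not analysed here.

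**Figure D2:**
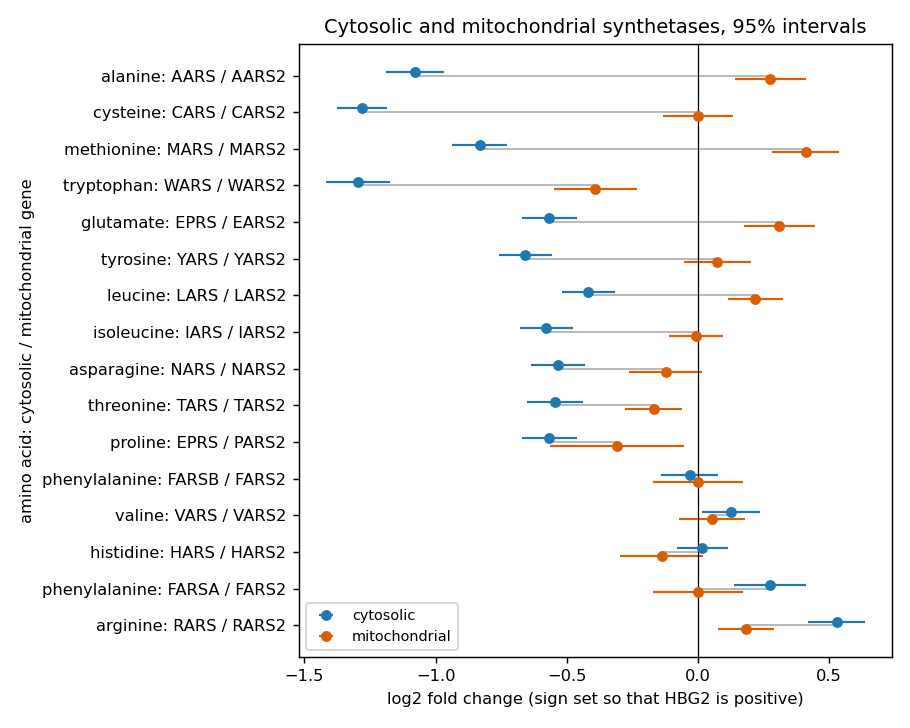
Log2 fold change of the cytosolic (blue) and mitochondrial (orange) synthetase for each of 16 pairs (horizontal axis, sign set so that HBG2 is positive), with derived 95% intervals. Blue lies to the left of orange, with separate intervals, in 10 pairs, and to the right with separate intervals only for arginine.

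The compartments also differed in level. Mean CPM per kilobase of exon was computed with exon lengths from GENCODE 29, on the GRCh38 build rather than the hg19/GRCh37 build named in the submitters' processing notes. On that scale the cytosolic genes had a median level of 6.14 log2 CPM per kilobase and the mitochondrial genes 3.15. The cytosolic gene had the higher level in 16 of 16 pairs, by a median of 3.08 on the log2 scale. GARS had the highest level of all members, at 7.51 log2 CPM per kilobase, and PARS2 the lowest, at 0.72. CARS and CARS2 were closest, at 4.74 and 4.23. Over the 35 members, Spearman's rho between log2 fold change and mean log2 CPM was -0.55; it was -0.46 over the 20 genes without a final 2 and 0.36 over the 15 mitochondrial genes. These points share libraries, depth and normalization, and the correlation is a description.

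**Figure D3:**
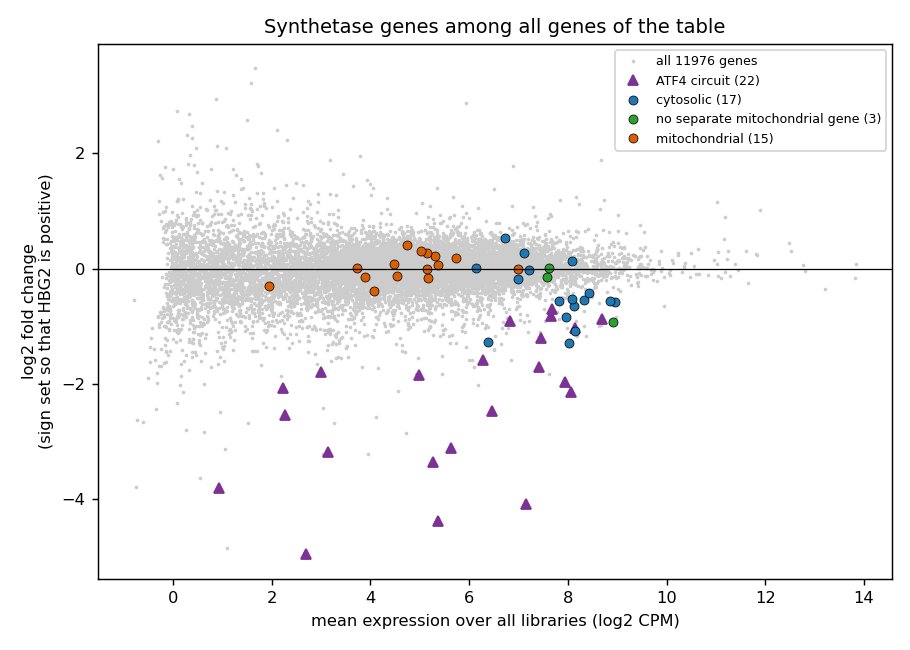
Log2 fold change (vertical axis, sign set so that HBG2 is positive) against mean log2 CPM over all libraries (horizontal axis) for all 11976 genes (grey), the synthetases by compartment and the 22 measured genes of an ATF4 circuit list (triangles). The lower cytosolic synthetases sit at high expression, between 6.39 and 8.95 log2 CPM.

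Read against genes of like expression, the counts were as follows. All 20 genes without a final 2 lay above the median of 4.64 log2 CPM over all genes, against 9 of 15 mitochondrial genes. Among the 2990 genes of at least 6 log2 CPM, a limit chosen after the values were seen, 23% were lower and 31.8% higher, and 3.28% were at least 1.5-fold lower. Of the 20 genes, which all pass that limit, 14 were lower, 2 higher and 6 at least 1.5-fold lower.

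Lower genes were found in and outside the multisynthetase complex and in both catalytic classes. The complex, a cytosolic particle of 8 synthetase genes and 3 scaffold proteins, had 6 synthetase genes lower (MARS, IARS, EPRS, LARS, DARS and QARS), 1 higher (RARS) and 1 not past the threshold (KARS); their median was -0.30. The 12 cytosolic-form synthetases outside the complex had 8 lower, 1 higher and 3 not past the threshold (median -0.55). Of the scaffold proteins, AIMP2 was higher at 0.35 (adjusted p = 0.00188), while AIMP1 stood at -0.04 and EEF1E1 at -0.26 (adjusted p = 0.0891) in the authors' deposited table. Synthetases fall into class I and class II by the fold of their active site. Class I had 8 of 18 measured genes lower and 5 higher, and class II had 8 of 16 lower and 2 higher. Over all genes 25.9% were lower and 24.9% higher. Both classes pool the compartments. Higher in class I were RARS and the mitochondrial RARS2, LARS2, EARS2 and MARS2, and in class II FARSA and the mitochondrial AARS2. EPRS holds an active site of each class and was counted in neither.

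Other genes linked to tRNA charging were called in both directions. They form 7 lists: complex scaffold, mitochondrial charging and delivery, cytosolic delivery, proofreading, selenocysteine charging, tRNA end processing and export, and sensing. The scaffold genes given above are counted here again, and ATF4, on the sensing list, is also on the ATF4 circuit list. Of the 37 measured genes, 7 were lower, 14 higher and 16 not past the threshold (median 0.08). That stands next to 25.9% lower and 24.9% higher over all genes. At a threshold of 0.01 the number higher was 9 and the number lower was again 7. XPOT, the exporter of tRNA from the nucleus, is listed in the authors' deposited table at -0.59 (1.51-fold lower, adjusted p = 3.72e-06). XPOT was the 1 lower gene of 7 measured on the list of tRNA end processing and export, of which 4 were higher and 2 not past the threshold; 2 were higher at a threshold of 0.01. TRMT10C, a subunit of mitochondrial RNase P, stood at 0.59 and ELAC2, which trims tRNA 3′ ends, at 0.49 in the authors' deposited table. HSD17B10, another RNase P subunit, stood at 0.17 and the export receptor XPO5 at 0.15 there. TRNT1, which adds the CCA end, stood at -0.15 (adjusted p = 0.104) and ELAC1 at -0.14 (adjusted p = 0.292). On the list of mitochondrial charging and delivery, 4 of 8 measured genes were higher and 0 lower (median 0.18); at a threshold of 0.01, without GATC and MTFMT, 2 of 8 were higher. The 4 are QRSL1 (0.33) and GATC (0.24), subunits of the amidotransferase that completes glutaminyl-tRNA, MTFMT (0.28) and GFM2 (0.25) in the authors' deposited table. MTFMT formylates the initiator tRNA. PTRH2, a peptidyl-tRNA hydrolase, was the 1 gene called of 5 on the proofreading list and stands at 0.49 in that table. In the cytosol, the elongation factors EEF1A1 (-0.17) and EEF2 (-0.26) were lower, and EEF1A2, a tissue-restricted paralog of EEF1A1, was higher at 1.05 in the authors' deposited table. The mean level of EEF1A2 was 2.72 log2 CPM, against 13.82 for EEF1A1.

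Among genes that sense uncharged tRNA, EIF2AK4, which encodes GCN2, stood at -0.0071 (adjusted p = 0.904) in the authors' deposited table. Its activator GCN1L1 was higher at 0.27 and its inhibitor IMPACT lower at -0.33 there. The authors' deposited table puts ATF4 itself at -0.88 (SE 0.05; adjusted p = 3.90e-07), close in size to GARS. All 22 measured genes of an ATF4 circuit list, which holds no synthetase, were lower, next to 25.9% of all genes. Their median was -2.02, over a range of -4.95 to -0.69. The 20 synthetase genes without a final 2 ranged from -1.30 to 0.53, and the 12 lowest synthetases from -1.30 to -0.42. The ATF4 circuit list was chosen with earlier results of these data known.

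Other lists of the translation machinery had medians nearer 0 than the cytosolic synthetases. Beside them, 25.9% of all genes were lower and 24.9% higher. Of 77 measured cytosolic ribosomal protein genes, 8 were lower and 9 higher, with a median of -0.03. Of 73 mitochondrial ribosomal protein genes, 7 were lower and 34 higher, with a median of 0.14, next to 3 lower and 5 higher among mitochondrial synthetases. Of 53 genes whose symbols start with EIF1 to EIF6, 10 were lower and 24 higher, with a median of 0.14. This list goes by symbol alone and also holds the kinase genes EIF2AK1 to EIF2AK4, the antisense RNA EIF3J-AS1 and the pseudogenes EIF4HP2 and EIF3EP1. Of the 53, 2 were at least 1.5-fold lower and 3 at least 1.5-fold higher, against 885 and 461 of all 11976 genes. The authors' deposited table puts the 2 lower ones, EIF4EBP1 and EIF1, at -0.91 and -0.73, in the range of the lower synthetases. EIF4EBP1, a repressor of cap-dependent translation, is also on the ATF4 circuit list, and EIF1 is a factor of start codon choice. The highest of the 53 was EIF5 at 0.88 (adjusted p = 4.97e-07) there. The difference between these lists was not tested.

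**Figure D4:**
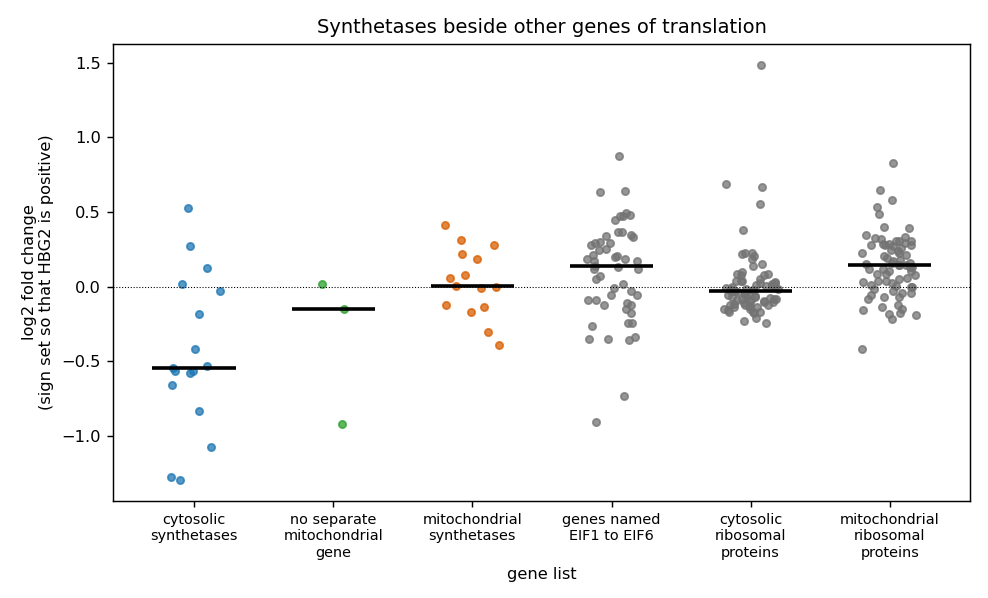
Log2 fold change (vertical axis, sign set so that HBG2 is positive) of single genes in 6 lists of the translation machinery, with a bar at each list's median. The cytosolic synthetases have their median at -0.54, and the medians of the other lists lie between -0.15 and 0.14.

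The promoter letters printed above were found mostly in genes that were lower. Of the 14 lower members with a window, 7 held a match to TGATGNAA, against 0 of 6 higher members and 1 of 9 not past the threshold. By compartment, 6 of 13 cytosolic and 1 of 13 mitochondrial genes with a window held a match. Of the genes with no separate mitochondrial gene, 1 of 3 did. Among the higher members with a window only RARS and FARSA are cytosolic, so these counts do not separate direction from compartment. All 6 matches among cytosolic genes and the match in GARS belong to genes that were lower, from CARS at -1.28 to NARS at -0.53. YARS2, the remaining match, stood at 0.07. Over all promoter windows 3.62% hold a match, and over the 9121 table genes with a window 2.51% do. The other 7 lower members with a window held no match: WARS, the lowest member, EPRS, SARS, WARS2, PARS2, TARS2 and QARS. That says only that the letters are not there. The motif was chosen after the fold changes were seen, and a match is a description, not a binding site.

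**Figure D5:**
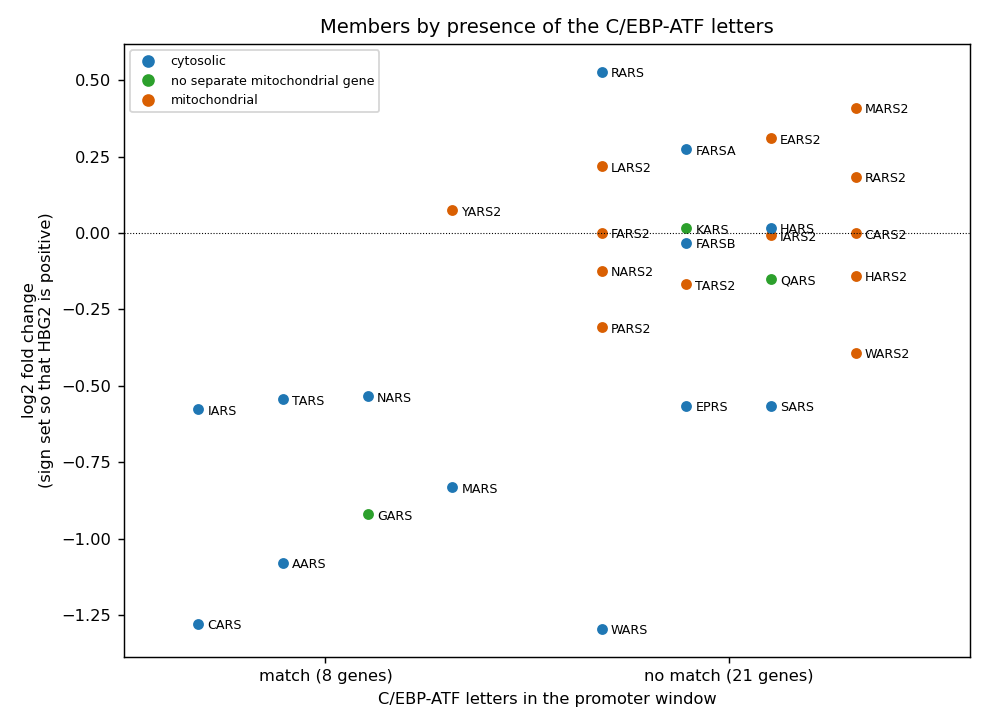
Log2 fold change (vertical axis, sign set so that HBG2 is positive) of the 29 members with a promoter window, split by whether the window holds TGATGNAA on either strand. Of the 8 genes with a match, 7 lie between -1.28 and -0.53 and YARS2 at 0.07.

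ERF binds the ETS element, so CCGGAAG was searched on both strands in the same windows. It was present in 15 of the 29 members with a window, in 8 of 14 lower, 3 of 6 higher and 4 of 9 not past the threshold. Of all table genes with a window 24.3% hold it, and of all windows 10.3%. Here too a match is a description, not a binding site, and binding of ERF was not tested. HARS and HARS2, whose RefSeq starts lie 85 bases apart in opposite directions, each hold CCGGAAG, and neither was past the threshold. Their windows overlap, so the same letters may be counted for both genes.

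Overlapping genes limit some values, since no source used here gives the strand setting of the authors' counting. In GENCODE 29, MARS shares 62 exon bases with DDIT3 on the opposite strand, 2.13% of its exon length, and the authors' deposited table has DDIT3 at -2.07. DDIT3 was expressed at 2.22 log2 CPM against 7.96 for MARS. WARS shares 272 exon bases with WDR25 (-0.53) and YARS 248 with S100PBP (-0.53), both lower as well in the authors' deposited table. EARS2 shares 370 exon bases, 8.15% of its exon length, with UBFD1, which was higher like EARS2 at 0.17 (adjusted p = 0.0168) and more expressed, at 5.64 log2 CPM against 5.02. GARS shares 99 with AC005154.6 (-0.27) and WARS2 117 with RP11-418J17.1 (0.08) there. HARS and HARS2 share 402 exon bases, 14.2% of the length of HARS2. The part of these overlaps in the synthetase values was not tested.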

How the data were processed

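One table was used, the authors' comparison of wild-type and knockout libraries. Per the file headers, each gene has 5 values that the authors computed: the log2 fold change, the log2 CPM averaged over libraries, the F score, and the p-value before and after adjustment. The submitters' processing notes name, with no roles, the build hg19/GRCh37 and the tools edgeR 2.6.12, HTSeq, Cuffdiff, SAMtools and TopHat2 2.0.4 of the authors. No source used here gives the filters, the normalization or the version of edgeR behind the authors' quasi-likelihood test. Of 11979 rows, 3 name no gene, hold 21.5% of the CPM and were left out. The deposited adjusted p-values differed by at most 0.676% from a Benjamini-Hochberg adjustment recomputed over all rows. A call is a deposited adjusted p below 0.05.

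Standard errors (SE) were derived by dividing the size of the log2 fold change by the root of F, and 95% intervals from t at the 10.3 degrees of freedom implied by F and p. They are approximate, since the prior count used by the authors is unknown. Steps were tested on simulated data with Python 3.11.15 and scipy 1.17.1. With 0 columns per sample in the table, depth is unknown and no model was refitted. The members and gene lists were chosen with earlier results of these data known. All measured members are accounted for, with full statistics for the 5 lowest and 5 highest and related genes taken from written lists. Genes were matched to RefSeq promoters by Ensembl identifier and current symbol. Alternatives covered the adjustment, threshold, a fold minimum, centring, an expression minimum and the sign.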

Additional observations from a re-analysis of the deposited data

How the results depend on the processing

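With the adjustment recomputed over named genes alone, every count and call was the same. A threshold of 0.01 left 1 mitochondrial synthetase lower in place of 3, with TARS2 and PARS2 no longer called, and QARS was also lost among members. Among the related genes it ended the calls of GATC, HSD17B10, MTFMT, SEPHS1 and XPO5, which left 9 higher in place of 14, with 2 in place of 4 on the lists of mitochondrial charging and delivery and of tRNA end processing and export. Requiring an absolute log2 fold change of at least 0.25 left 3 mitochondrial genes higher in place of 5 and ended the calls of DARS, LARS2, QARS, RARS2 and TARS2 among members and of EEF1A1, GATC, HSD17B10, SEPHS1 and XPO5 among related genes. That left 2 genes higher on the list of tRNA end processing and export. Either setting left 1 selenocysteine gene higher in place of 2, and the fold minimum left 1 cytosolic delivery gene lower in place of 2. Counts of related genes under these settings were added after seeing the data. With genes of at least 2 log2 CPM only, PARS2 dropped out and the median difference of the pairs became -0.57. Centring on the median of all genes turned CARS2 to 0.00077. Centring on the genes at 5 log2 CPM or more turned FARS2 to -0.034, HARS to -0.018, KARS to -0.018, EEF1D to -0.015 and TUFM to -0.015, none of them past the threshold in either form. With the sign as deposited, members had 7 lower and 17 higher with a median of 0.14, cytosolic genes 2 lower and 12 higher with a median of 0.54, and mitochondrial genes 5 lower and 3 higher. No paired analysis was possible because the table holds no values per library, and leaving out each replicate was not run for the same reason.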

Other observations

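Of the 457 genes at 8 log2 CPM or more, a limit chosen after the values were seen, 19 were at least 1.5-fold lower. Synthetases made up 4 of these 19 (WARS, AARS, GARS and YARS), out of 10 synthetases at that level. The other 15 are XPOT, ATF4, the amino acid transporters SLC38A2 (-1.16), SLC7A5 (-1.03) and SLC1A5 (-0.98), the amino acid enzymes PSAT1 (-2.14), BCAT1 (-1.05) and GLUL (-0.65), and 7 genes of other kinds, in the authors' deposited table. Those 7 are SREBF1 (-1.18) and SCD (-0.84) of lipid synthesis, LMBRD2 (-0.99), the glycosyltransferase OGT (-0.99), the transcription factor MYB (-0.91), EIF1 (-0.73) and ANKRD27 (-0.60). No list behind this grouping was tested.

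Genes of selenocysteine charging moved in both directions. SEPSECS, the last enzyme of selenocysteinyl-tRNA synthesis, stood at -0.46 and SEPHS2 at -0.26, while PSTK, which acts on the serine-charged tRNA a step earlier, stood at 0.34 and SEPHS1 at 0.19 in the authors' deposited table.

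Across the whole table, the TGATGNAA letters were found in 3.78% of the promoters of lower genes, 1.75% of those of higher genes and 2.26% of those of genes not past the threshold. Among genes at least 1.5-fold lower the share was 7.47%. For CCGGAAG the shares were 20.4% for lower genes, 26.6% for higher genes and 25.0% for genes not past the threshold. For genes at least 1.5-fold lower the share was 11.5%.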
